A study of Mus musculus with 6 samples.

Results

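The genes described here are 10 genes of the endoplasmic reticulum (ER) stress response, also called the unfolded protein response, measured in stem cell-enriched cells of the mouse pituitary. They were chosen by the gene name that the array files give each probe, and comprise Hspa5, Hsp90b1, Calr, Pdia4, Dnajb9, Herpud1, Xbp1, Atf4, Ddit3 and Trib3. They are 10 of the 30119 genes or unnamed transcripts on the array and have 12 of its 39429 probes. Dnajb9 and Atf4 have more than 1 probe.

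The ER folds and modifies proteins bound for membranes and secretion, and pituitary hormone cells, which export large amounts of peptide hormone, depend on it. When unfolded proteins accumulate, the chaperone BiP (Hspa5) leaves the stress transducers IRE1, PERK and ATF6. IRE1 splices the mRNA of Xbp1, ATF6 is cleaved into a transcription factor, and PERK phosphorylates eIF2alpha, which lowers general translation while that of Atf4 rises. XBP1 and ATF6 raise transcription of chaperones and of the degradation machinery, and ATF4 raises that of amino acid metabolism genes and of Ddit3, whose product CHOP is tied to cell death. Much of the response runs through splicing, cleavage and translation, and these arrays measure RNA levels alone.

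The samples are side population cells, which pump out the dye Hoechst, from anterior pituitaries of female mice, with those of high Sca1 removed by sorting after trypsin dissociation. All mice carried iDTR, an inducible diphtheria toxin receptor, and every mouse was given diphtheria toxin at 4 ng per g of body weight, 2 times daily. GHCre/iDTR mice (GHCre) also carried a Cre driven from the growth hormone gene, so that toxin is directed at growth hormone cells, and -/iDTR mice (control) had no Cre. The comparisons ask how the sorted cells differ between the genotypes early and late in the treatment. The groups are GHCre after 3 days (2 arrays), control after 3 days (2 arrays), GHCre after 10 days (1 array) and control after 10 days (1 array). A sort typically gave 25000 to 50000 cells, from which 1 ng of total RNA was amplified before labelling. Nothing in the labels says whether replicates came from separate animals, so p-values measure only the spread between these arrays.

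Levels are given as log2 signals with the log2 75th percentile of that array's probes subtracted, and differences are GHCre minus control on the log2 scale with the standard error (SE) of the limma fit. The 75th percentile ran from 186.15 (replicate 1 of the 3 day controls) to 298.51 (replicate 1 of the 3 day GHCre group), and between 53.8% and 65.7% of probes were well above background. The 3 day arrays share slides by replicate number, the 10 day GHCre array lay on the slide of replicate 2, and the 10 day control had a slide of its own. Genotype and slide therefore cannot be told apart in any 10 day genotype difference. Gh, which encodes growth hormone and marks the cells aimed at, was at 5.46 and 2.20 in GHCre and 5.69 and 3.65 in control after 3 days, and at 2.21 in GHCre and 7.86 in control after 10 days. The 3 day groups overlapped for Gh (difference -0.84 ± 1.41, adjusted p = 0.921 with limma), and after 10 days the GHCre array was lower by 5.65 on the log2 scale (SE 1.99, adjusted p = 1.00). Of 15 pituitary stem cell markers, 12 were above background on all 6 arrays, while the probe of the stem cell regulator Sox2 was not well above background on any of them.

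Sequences upstream of these genes are shown because the DNA elements that ATF6 and XBP1 bind lie close to the start site of the chaperone genes. All 10 genes matched an entry of RefSeq's promoter table (build GRCm38.p6, 250 bases before to 50 after each start, 32851 windows). The ER stress response element, bound by ATF6 together with the factor NF-Y, was searched on both strands as CCAAT, 9 bases of any kind and CCACG. It was found in 39 windows (0.119%), among them those of Hspa5, Hsp90b1 and Calr. ER stress response element II, ATTGG and CCACG with 1 base between them, was found in 12 windows (0.0365%), Herpud1 among them. The 250 bases before each of these starts read 5′ to 3′ along the gene, with the elements in capitals:
Hspa5: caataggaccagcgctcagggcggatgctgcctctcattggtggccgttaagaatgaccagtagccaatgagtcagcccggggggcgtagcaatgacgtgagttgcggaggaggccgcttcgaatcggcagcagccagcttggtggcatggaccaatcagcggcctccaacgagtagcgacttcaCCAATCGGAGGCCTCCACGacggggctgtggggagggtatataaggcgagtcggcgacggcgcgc
Hsp90b1: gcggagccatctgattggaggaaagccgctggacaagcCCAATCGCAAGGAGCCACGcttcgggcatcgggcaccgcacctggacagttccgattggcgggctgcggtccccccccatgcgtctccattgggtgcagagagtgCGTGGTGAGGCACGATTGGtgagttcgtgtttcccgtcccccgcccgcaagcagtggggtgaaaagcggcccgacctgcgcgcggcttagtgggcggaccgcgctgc
Calr: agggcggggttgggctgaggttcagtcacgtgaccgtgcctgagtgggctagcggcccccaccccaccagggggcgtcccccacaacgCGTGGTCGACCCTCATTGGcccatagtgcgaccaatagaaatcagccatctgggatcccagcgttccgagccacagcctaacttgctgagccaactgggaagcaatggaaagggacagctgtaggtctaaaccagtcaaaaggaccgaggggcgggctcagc
Herpud1: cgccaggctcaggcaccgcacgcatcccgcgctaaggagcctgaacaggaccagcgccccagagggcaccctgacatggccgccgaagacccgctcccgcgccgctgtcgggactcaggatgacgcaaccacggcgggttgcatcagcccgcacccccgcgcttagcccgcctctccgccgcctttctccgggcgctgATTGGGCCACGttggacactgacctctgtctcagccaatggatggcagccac
The stretches lie at chr2:34771840-34772089 (plus strand), chr10:86705445-86705694 (minus strand), chr8:84846932-84847181 (minus strand) and chr8:94386179-94386428 (plus strand) in the order printed. Hsp90b1 carries the element 2 times, once on each strand, and Calr on the strand opposite to its transcription. In Hspa5 the element lies from -65 to -47 relative to the start, and in Herpud1 element II lies from -52 to -42. The XBP1 and ATF6 motif TGACGTGG, present in 0.676% of windows, was not in the window of any of the 10 genes. The element that ATF4 and CHOP bind with C/EBP partners, TGATGNAA, was in 3.97% of windows, those of Herpud1 (from -112 to -105) and Trib3 (from base 14 to base 21 after the start) included. A match is a description of the letters and no evidence of binding.

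After 3 days of toxin, the measured genotype difference was under 2-fold for each of the 9 ER stress genes above background on all 6 arrays. This held for 81.6% of the genes above background on all 6 arrays and for 73.9% of the 20924 tested. Trib3, below background on 1 array of each genotype, had a difference whose sign depended on the array left out. The difference was positive for 7 of 10, against 48.0% of all genes, with a median of 0.13 against -0.04. The median of the 10 was 0.26 under quantile normalization, 0.22 without replicate 2 of the controls and 0.076 with the probes of a gene averaged. In limma's fit 0 of 20924 genes passed an adjusted p of 0.05 (background 0.0%). At an unadjusted p of 0.05, 1376 genes (6.58%) and 0 of the 10 ER stress genes were called. The 95% intervals of the 9 genes other than Trib3 lay between -1.31 and 1.99. Each of these intervals holds a 2-fold difference in at least 1 direction. In RNA of sorted cells, fewer cells of a type and less RNA per cell cannot be told apart.

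**Figure D1:**
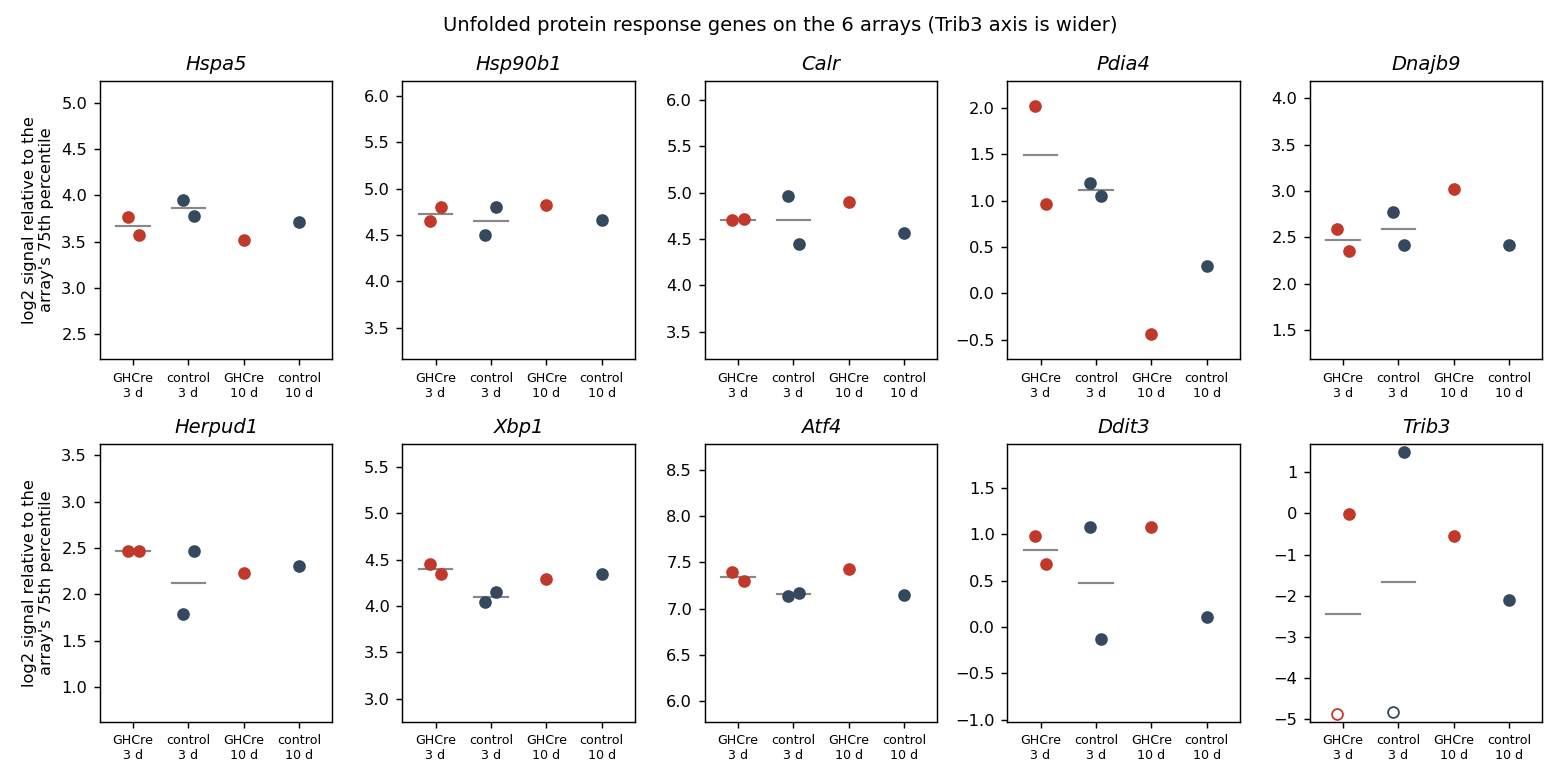
Level of each of the 10 ER stress genes on the 6 arrays (vertical axis, log2 signal over the 75th percentile), by genotype and days of toxin (horizontal axis, GHCre red, control dark blue). Points are arrays, grey bars are the means of the 3 day pairs, and open points were not well above background. Every panel but that of Trib3 spans the same number of log2 units, and the points of Hspa5, Hsp90b1, Xbp1 and Atf4 lie within 0.43 of each other.

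Among the chaperones, Hspa5 encodes BiP, the main Hsp70 of the ER and the classical marker of the response. Its probe (chr2:34631913-34631972, mm9) was at 3.76 and 3.57 in GHCre and 3.95 and 3.77 in control after 3 days, and at 3.52 in GHCre and 3.71 in control after 10 days. GHCre lay below control at both times, without overlap at 3 days. The difference was -0.19 ± 0.40 after 3 days (95% interval -1.31 to 0.92, adjusted p = 0.938 with limma) and -0.19 ± 0.57 after 10 days (interval -1.77 to 1.39). In rising order the group levels were GHCre after 10 days, GHCre after 3 days (mean 3.67 ± 0.13, SD, n = 2), control after 10 days and control after 3 days (3.86 ± 0.12, SD, n = 2). Each step between neighbours in this order was smaller than the SE of the 3 day difference.

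Hsp90b1 encodes GRP94, the Hsp90 of the ER, which folds integrins, Toll-like receptors and insulin-like growth factors. Its probe (chr10:86153770-86153829) was at 4.65 and 4.80 in GHCre and 4.50 and 4.80 in control after 3 days, and at 4.82 in GHCre and 4.66 in control after 10 days. The 3 day groups overlapped (difference 0.08 ± 0.41), and the 10 day arrays differed by 0.17 ± 0.58. Calr encodes calreticulin, the lectin chaperone that binds glycoproteins and calcium. Its probe (chr8:87366192-87366251) was at 4.70 and 4.71 in GHCre and 4.96 and 4.45 in control after 3 days, and at 4.90 in GHCre and 4.57 in control after 10 days. The GHCre replicates lay between the control replicates, with a difference of 0.003 ± 0.43 that was -0.26 on the slide of replicate 1 and 0.26 on that of replicate 2.

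Pdia4 encodes ERp72, a protein disulfide isomerase. Its probe (chr6:47746516-47746575) was at 2.03 and 0.97 in GHCre and 1.19 and 1.05 in control after 3 days, and at -0.44 in GHCre and 0.30 in control after 10 days. Both 10 day arrays were below all 3 day arrays, and the GHCre replicates of 3 days differed by more than the control replicates. The genotype difference was 0.38 ± 0.54 after 3 days (0.84 and -0.08 by slide) and -0.74 ± 0.77 after 10 days. Without replicate 1 of GHCre, the 3 day difference was -0.15.

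Of the genes downstream of IRE1 and ATF6, Xbp1 encodes the transcription factor whose mRNA IRE1 splices, and the probe (chr11:5425816-5425875) gives 1 level for the gene and not the spliced form. It was at 4.45 and 4.34 in GHCre and 4.04 and 4.15 in control after 3 days, and at 4.29 in GHCre and 4.34 in control after 10 days. Both 3 day GHCre arrays were above both controls, and the 10 day arrays lay within 0.05 of each other. The 3 day difference was 0.30 ± 0.40 (interval -0.80 to 1.40, adjusted p = 0.906 with limma), positive on both slides (0.41 and 0.19), and that of 10 days was -0.05 ± 0.56.

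Dnajb9 encodes ERdj4, a J-domain partner of BiP. Its first probe (chr12:45307313-45307372) was at 2.59 and 2.35 in GHCre and 2.78 and 2.41 in control after 3 days, and at 3.02 in GHCre and 2.42 in control after 10 days. Its other probe (chr12:45308272-45308331) was at 1.82 and 1.58 in GHCre and 1.11 and 1.75 in control after 3 days, and at 1.97 in GHCre and 1.78 in control after 10 days. On both probes the 3 day groups overlapped and the 10 day GHCre array was the highest of all 6. The 3 day differences had opposite signs (-0.12 ± 0.42 and 0.27 ± 0.48), and those of 10 days were 0.60 ± 0.60 and 0.19 ± 0.68.

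Herpud1 encodes a membrane protein of ER-associated degradation, the route that returns misfolded proteins to the proteasome. Its probe (chr8:96919117-96919176) was at 2.47 and 2.47 in GHCre and 1.78 and 2.46 in control after 3 days, and at 2.23 in GHCre and 2.31 in control after 10 days. Replicate 1 of the controls was low and the other 5 arrays lay close together. The 3 day difference of 0.34 ± 0.46 (adjusted p = 0.906 with limma) was 0.68 on the slide of replicate 1 and 0.003 on that of replicate 2. The low control array also had the lowest 75th percentile (186.15) and the fewest probes above background (53.8%), and their part in the Herpud1 level was not tested. The 10 day difference was -0.08 ± 0.65.

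In the branch below PERK, Atf4 encodes the transcription factor whose translation rises when eIF2alpha is phosphorylated. Its first probe (chr15:80087902-80087961) was at 7.40 and 7.30 in GHCre and 7.14 and 7.17 in control after 3 days, and at 7.42 in GHCre and 7.15 in control after 10 days. All 3 GHCre arrays were above all 3 controls. The difference was 0.19 ± 0.40 after 3 days (interval -0.90 to 1.29, adjusted p = 0.937 with limma) and 0.27 ± 0.56 after 10 days. The other probe of Atf4 (chr15:80086639-80086698) was at 4.77 and 4.73 in GHCre and 4.97 and 5.02 in control after 3 days, and at 4.80 in GHCre and 4.66 in control after 10 days. There both 3 day GHCre arrays were below both controls, with a difference of -0.25 ± 0.42.

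The probes of Atf4 thus gave opposite orders of the genotypes at 3 days, each without overlap, and the genotype differences of the 2 probes were 0.44 apart after 3 days and 0.13 after 10 days. Of 2941 genes with at least 2 probes above background on all 6 arrays, the 2 brightest probes had opposite signs in 37.1% and opposite signs with no overlap on either in 4.42%. Averaged over both probes, the 3 day difference of Atf4 was -0.03 and that of Dnajb9 was 0.07.

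**Figure D2:**
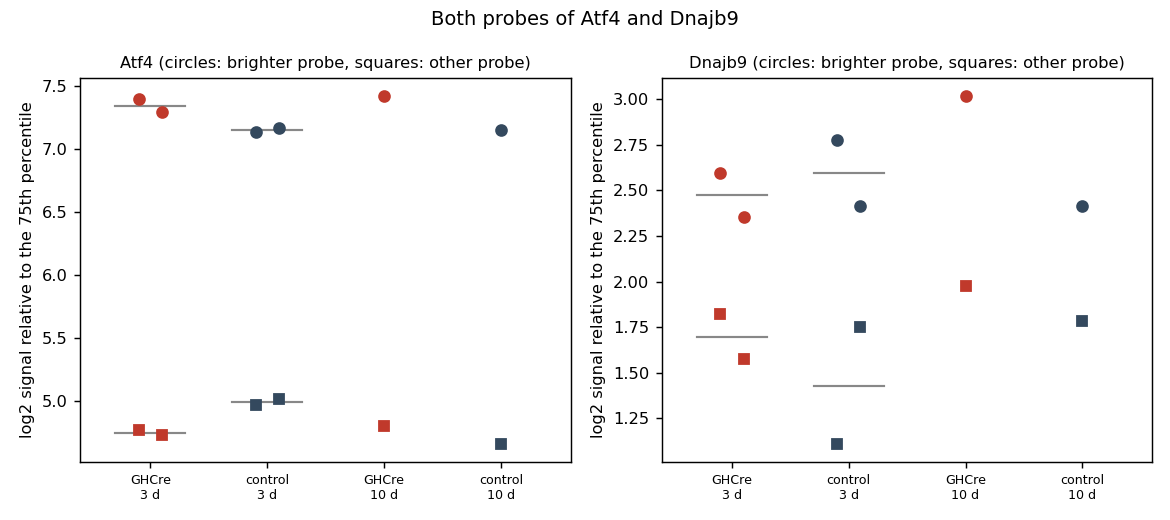
Levels of both probes of Atf4 (left) and Dnajb9 (right) on the 6 arrays (vertical axis, log2 signal relative to the 75th percentile), by group (horizontal axis, GHCre red, control dark blue). Circles are the probe that stands for the gene, squares the other probe, and grey bars the 3 day means. For Atf4 the circles of GHCre lie above those of control after 3 days and the squares below.

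Ddit3 encodes CHOP, the transcription factor that ATF4 induces. Its probe (chr10:126732518-126732821) was at 0.98 and 0.68 in GHCre and 1.08 and -0.13 in control after 3 days, and at 1.08 in GHCre and 0.10 in control after 10 days. The 3 day groups overlapped because the control replicates were 1.21 apart, the full range of the gene over the 6 arrays. The difference was 0.35 ± 0.59 after 3 days and 0.98 ± 0.84 after 10 days (interval -1.34 to 3.29, adjusted p = 1.00 with limma). Without replicate 2 of the controls the 3 day difference was -0.25.

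Trib3 encodes a pseudokinase induced by ATF4 and CHOP that binds the kinase AKT. Its probe (chr2:152163161-152163220) was at -4.87 and -0.002 in GHCre and -4.83 and 1.50 in control after 3 days, and at -0.54 in GHCre and -2.10 in control after 10 days. It was not well above background on the arrays of replicate 1, 1 of each genotype on a shared slide, and was on the other 4 arrays. The same pattern was found in 178 genes tested (0.851%). The genotype differences of -0.77 ± 2.84 after 3 days and 1.56 ± 4.02 after 10 days were below their standard errors, and the intervals ran from -8.63 to 7.09 and from -9.56 to 12.7.

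Counted over arrays, both GHCre arrays of 3 days were above both controls for Xbp1, Herpud1 and Atf4, which is 3 of 10 genes against 16.7% of all genes tested, with a margin of 0.003 on the log2 scale for Herpud1. Both were below for Hspa5 alone, against 21.3%, with its higher GHCre array at 3.76 and its lower control at 3.77. By slide, the median of the 10 genes at 3 days was 0.06 for replicate 1 and 0.001 for replicate 2. After 10 days, 6 of 10 differences were positive against 49.9% of all genes, with a median of 0.22 against -0.001. All but Trib3 differed by less than 2-fold, against 73.4% of genes. In limma's fit 0 of 20924 genes passed an adjusted p of 0.05 (background 0.0%) and 631 an unadjusted p of 0.05 (3.02%), with 0 of the 10 among them. That contrast sets 1 array against 1, so its errors are those of the 3 day replicates. Its arrays lay on different slides, so genotype and slide cannot be told apart in it or in the difference of effects below.

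**Figure D3:**
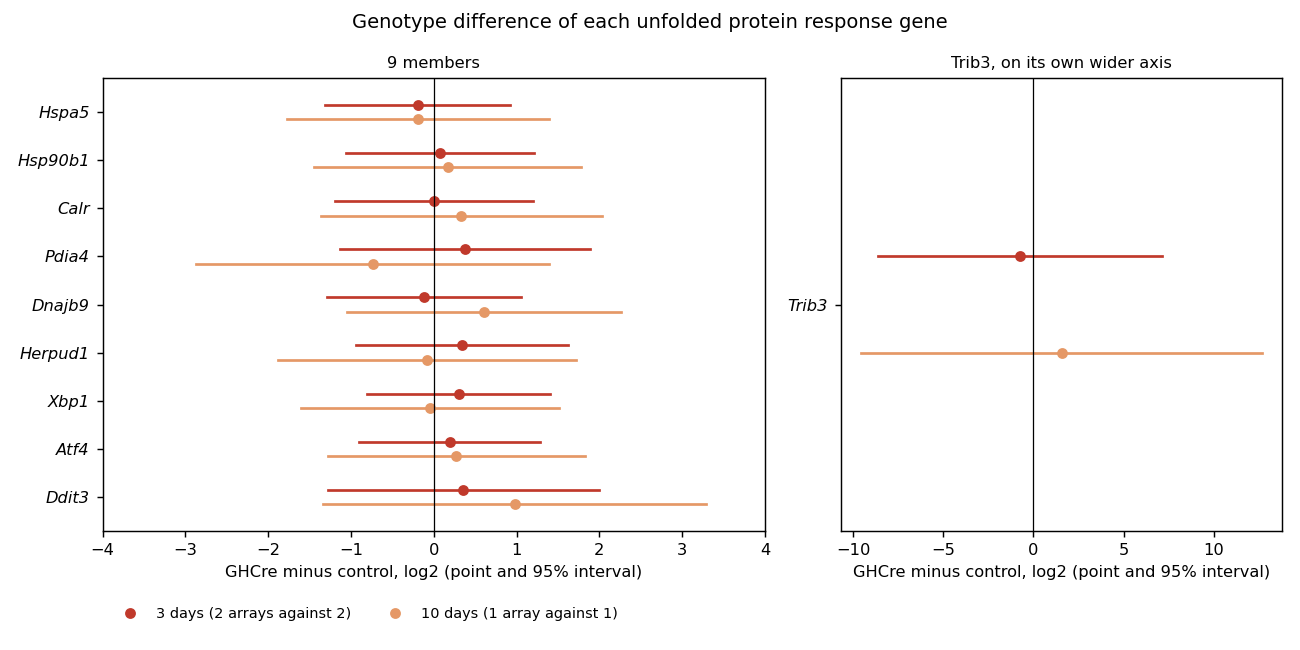
GHCre minus control difference of each of the 10 genes (horizontal axis, log2, point and 95% interval of the limma fit) after 3 days (red) and 10 days (orange), with Trib3 on an axis of its own. The vertical line marks no difference and lies within every interval.

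The difference between the genotype effects, 10 days minus 3 days, had a median of 0.09 over the 10 genes and 0.03 over all genes. Under quantile normalization the median of the 10 was -0.056, with 4 of 10 positive, against 7 of 10 in the fit reported. Pdia4 had -1.12 ± 0.94, Trib3 2.33 ± 4.92, Dnajb9 0.73 ± 0.73 and Ddit3 0.62 ± 1.02, and the other 6 lay between -0.42 and 0.33. With an adjusted p of 1.00 for each in limma's fit, no change of the genotype effect with time was detectable, and 0 of 20924 genes passed the threshold (824 at an unadjusted p of 0.05, 3.94%).

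Over time within the GHCre genotype, Pdia4 and Trib3 (1.89 ± 3.48) had the differences of largest size among the 10. Pdia4 was at -0.44 after 10 days against 2.03 and 0.97 after 3 days, a difference of -1.94 ± 0.67 (10 days minus 3 days, interval -3.78 to -0.09) with an unadjusted p of 0.0433 and an adjusted p of 1.00 in limma's fit. On the slide of replicate 2 alone it was -1.41. Differences no larger than that of the fit were found in 91.7% of all genes. Pdia4 was the only one of the 10 called at an unadjusted p of 0.05, where 1.88% of genes were called lower and 4.02% in either direction. No gene passed an adjusted p of 0.05 (background 0.0%). In control it was at 0.30 after 10 days against 1.19 and 1.05 after 3 days (difference -0.82 ± 0.67). The median of the 10 genes over time was 0.09 in GHCre, against 0.11 for all genes, and -0.14 in control, against 0.09. In GHCre it was -0.013 without replicate 1 of the 3 day group and -0.037 with the slide as a block. In control it was -0.0022 under quantile normalization (0.0021 for all genes) and 0.0063 in the deposited series table (0.010 for all genes). Without replicate 1 of the 3 day controls it was -0.043 (0.031 for all genes). These time comparisons share their arrays with the genotype comparisons.

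The spread of most of these genes over all 6 arrays was small. The highest and lowest level were 0.29 apart for Atf4, 0.33 for Hsp90b1, 0.41 for Xbp1, 0.43 for Hspa5 and 0.51 for Calr. Ranges this small or smaller were found in 0.951%, 1.81%, 3.95%, 4.50% and 7.47% of the 14724 genes above background on all 6 arrays, in the same order. Dnajb9 and Herpud1 had ranges of 0.67 and 0.68, Ddit3 of 1.21, Pdia4 of 2.47 and Trib3 of 6.37. The median range was 0.59 for the 10 genes and 1.73 for all genes tested. Over genes above background on all 6 arrays it was 0.51 for 9 of the 10 and 1.39 for all such genes. The chaperone genes with the ER stress response element in the window were all among the 5 genes of smallest range. The others were Atf4 and Xbp1, in whose windows it was not found. A part of the element in the ranges was not tested. These 5 also had the highest mean levels of the 10 genes, from 3.71 (Hspa5) to 7.26 (Atf4), with Dnajb9 next at 2.60. The ranges were not compared with genes of like level, and the part of signal level in them was not tested.

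**Figure D4:**
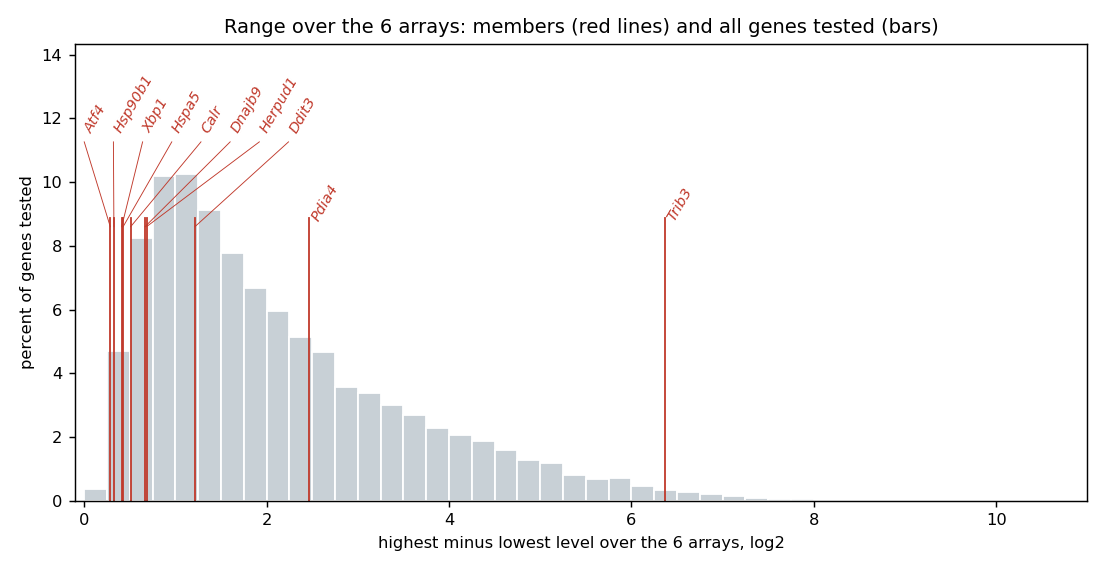
Range of each gene over the 6 arrays (horizontal axis, highest minus lowest level, log2) as a histogram of all genes tested (grey bars, vertical axis, percent of genes). Red lines mark the 10 ER stress genes, of which 7 lie at or below 0.68 and Trib3 at 6.37.

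By the root mean square difference of levels centred over the 6 arrays, the features closest to Hspa5 among 14724 were 4 without a gene symbol and Rpl13a, a ribosomal protein gene. Rpl13a was at 4.02 and 3.86 in GHCre and 4.28 and 4.09 in control after 3 days, and at 3.86 in GHCre and 4.10 in control after 10 days, a distance of 0.042 from Hspa5. Of the other ER stress genes above background on all 6 arrays, Calr was the closest, at rank 1831 with 0.22, and Pdia4 the farthest, at rank 10365 with 0.69. Hsp90b1, the other ER heat shock chaperone, was at rank 2270 with 0.24. The levels were centred but not scaled, so the distance also grows with a gene's own range, which was 2.47 for Pdia4 and 0.43 for Hspa5. A rank is therefore no measure of a like pattern alone.

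Genes that share the ER stress response element were also described as a set. Of 37 genes with the first element in the window, 20 were tested, and after 3 days 7 had positive and 13 negative differences, with a median of -0.16 and 17 of 20 within 2-fold, against 48.0% positive and 73.9% within 2-fold for all genes. None was called at an unadjusted p of 0.05, against 6.58% of all genes. Without Hspa5, Hsp90b1 and Calr the counts were 5 and 12 of 17 with a median of -0.28. After 10 days 12 of 20 differences were positive (49.9% of all genes) and 8 negative, with a median of 0.16, and 1 of 20 was called at an unadjusted p of 0.05 (3.02% of all genes).

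The rest of the pathway was described with 6 gene lists that hold none of the 10 genes, and no gene of any list passed an adjusted p of 0.05 in either genotype comparison. Of 14 stress sensors and eIF2alpha kinases, 10 had positive differences after 3 days (median 0.15 against -0.04 for all genes), and both GHCre arrays were above both controls for 4 and below for 0, against 16.7% and 21.3% of all genes. Eif2ak2, which encodes the kinase PKR that senses double-stranded RNA, was higher by 1.02 ± 0.41, Ppp1r15a, the phosphatase cofactor that reverses eIF2alpha phosphorylation, by 0.79 ± 0.40, and Eif2ak4, the amino acid sensor GCN2, by 0.55 ± 0.46. The transducers themselves, named here for their role, differed by 0.12 ± 0.68 (Ern1, IRE1), 0.84 ± 1.02 (Eif2ak3, PERK) and -0.58 ± 0.76 (Atf6). After 10 days the list median was 0.34, with Eif2ak1 at 1.31 ± 1.01 and Atf6 at -1.58 ± 1.07.

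Of 29 ER chaperones and folding enzymes, 14 had positive and 15 negative differences after 3 days (median -0.03), with no overlap for 7 above and 8 below, against 16.7% and 21.3% of all genes. Erp44, a thioredoxin-like protein that retains the oxidases Ero1a and Ero1b, was at -0.25 and -0.22 in GHCre and -1.79 and -1.40 in control after 3 days, and at -1.30 in GHCre and 0.86 in control after 10 days. GHCre was thus the higher genotype at 3 days and the lower at 10 days, where 1 array was set against 1 on another slide. The differences were 1.36 ± 0.42 (unadjusted p = 0.0306, adjusted p = 0.739 with limma) and -2.16 ± 0.59 (unadjusted p = 0.0211, adjusted p = 1.00 with limma). Among the oxidases that recharge the disulfide isomerases, Ero1b differed by 0.96 ± 0.56 and Ero1a by -1.18 ± 0.61 at 3 days. Without replicate 1 of the controls these were 0.40 and -0.55, and without replicate 2 they were 1.52 and -1.82. The isomerase Pdia5 differed by 1.16 ± 0.48, and the prolyl isomerases Fkbp2 and Fkbp14 by -0.72 ± 0.45 and -0.66 ± 0.40. After 10 days the median was 0.06, and Sdf2l1, a BiP cofactor, differed by 1.33 ± 0.60.

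Of 26 genes of ER-associated degradation, 13 had positive and 13 negative differences after 3 days (median -0.07). Fam8a1, a cofactor of the ubiquitin ligase HRD1, was at -2.01 and -1.50 in GHCre and 0.81 and 0.55 in control after 3 days. The groups did not overlap and differed by -2.43 ± 0.44 (unadjusted p = 0.00525, adjusted p = 0.689 with limma), and by -0.54 ± 0.63 after 10 days. Dnajb12, a J-domain protein of the ER membrane, differed by 2.38 ± 0.75, although 1 control array was not above background. Ubxn4, an ER adaptor of the ATPase p97, was at -2.54 and -3.75 in GHCre and not above background on either 3 day control. The bound of at least 1.66-fold higher in GHCre rests on replicate 1 of GHCre, and without it was 1.09-fold. The others named by rule at 3 days were Herpud2 (0.55 ± 0.43), Derl3 (-1.13 ± 0.49) and Erlec1 (-0.72 ± 0.47). After 10 days the median was 0.17, with Edem3, which trims mannose, at 1.83 ± 1.91 and Ubxn8 at -1.76 ± 1.56.

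Of 27 targets of ATF4 and the integrated stress response, 18 had positive differences after 3 days, with a median of 0.52 that was 0.52 and 0.38 by slide. Both GHCre arrays were above both controls for 12 and below for 4, against 16.7% and 21.3% of all genes. At an unadjusted p of 0.05, 0 were called higher (3.95% of all genes) and 2 lower (2.63%). With higher levels in GHCre, the rule named Mthfd2, of mitochondrial folate metabolism (1.35 ± 0.58, and 0.74 without replicate 1 of the controls), Gpt2, an alanine aminotransferase (0.97 ± 0.46), and Tnfrsf10b, the death receptor that CHOP induces (0.88 ± 0.42). With lower levels it named the mitochondrial enzymes Pck2 (-1.29 ± 0.46) and Shmt2 (-1.20 ± 0.40) and the lipoprotein receptor Vldlr (-1.21 ± 0.53). After 10 days the median was -0.04. Gpt2, not above background on the GHCre array, was then at least 3.26-fold lower in GHCre (fitted difference -1.92 ± 0.66, unadjusted p = 0.0429 and adjusted p = 1.00 with limma). Its direction and that of Tnfrsf10b (-1.56 ± 0.59) were opposite to those of 3 days, with 1 array against 1 after 10 days. For the difference of the genotype effects, 0 of the 27 genes passed an adjusted p of 0.05 in limma's fit. The 3 day difference of Gpt2 was as low as 0.042 under the alternatives. Slc7a5, a transporter of large neutral amino acids, was at 3.36 in GHCre and 0.41 in control. Its difference of 2.95 ± 0.73 had an unadjusted p of 0.0153 and an adjusted p of 1.00 in limma's fit, and in the 3 day arrays it was at 2.48 and 2.11 in GHCre and 1.96 and 1.09 in control. The glycine transporter Slc6a9 had the most negative difference of the list (-2.54 ± 0.73).

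Of 37 genes of ER entry and the early secretory pathway, 13 had positive and 24 negative differences after 3 days (median -0.08), and 27 positive and 10 negative after 10 days (median 0.18). Kdelr3, a receptor that returns escaped chaperones from the Golgi, was at -2.05 and -2.48 in GHCre and -0.23 and 0.17 in control after 3 days, and at -0.95 in GHCre and -1.99 in control after 10 days. GHCre was lower without overlap at 3 days, by 2.23 on the log2 scale (SE 0.44, unadjusted p = 0.00728, adjusted p = 0.692 with limma), and the 10 day difference was 1.04 ± 0.63. That 10 day difference rests on 1 array against 1 on another slide. Srp9, of the signal recognition particle, differed by -1.29 ± 0.41, and the COPII coat genes Sec24d and Sec31a by 0.98 ± 0.43 and -0.37 ± 0.42. Mcfd2, a cargo receptor subunit, and Rpn2, of the oligosaccharyltransferase, differed by 1.54 ± 0.86 and 0.63 ± 0.41. Mcfd2 was at -0.10 and 0.07 in GHCre and -0.47 and -2.64 in control, and without replicate 2 of the controls its difference was 0.45. At 10 days Ssr2, of the translocon-associated complex, differed by 1.81 ± 0.61 and the signal peptidase gene Sec11c by -0.70 ± 0.82.

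Of 15 heat shock genes that serve chiefly the cytosol, 13 had negative differences after 3 days, with a median of -0.39 (-0.17 and -0.50 by slide) and no gene called at an unadjusted p of 0.05, where 6.58% of all genes were. Both GHCre arrays were below both controls for 6 and above for 0, against 21.3% and 16.7% of all genes. Dnajb1, a partner of cytosolic Hsp70, was at 8.67 and 8.78 in GHCre and 9.13 and 9.52 in control, and the small heat shock gene Hspb1 at 5.13 and 5.56 in GHCre and 5.93 and 6.33 in control. Their differences were -0.60 ± 0.42 and -0.79 ± 0.45, and that of Hspe1, which encodes a co-chaperonin of mitochondria, was -0.52 ± 0.40. After 10 days the median was 0.03, with Cryab at 0.58 ± 0.76 and Hsp90aa1 at -0.25 ± 0.56.

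**Figure D5:**
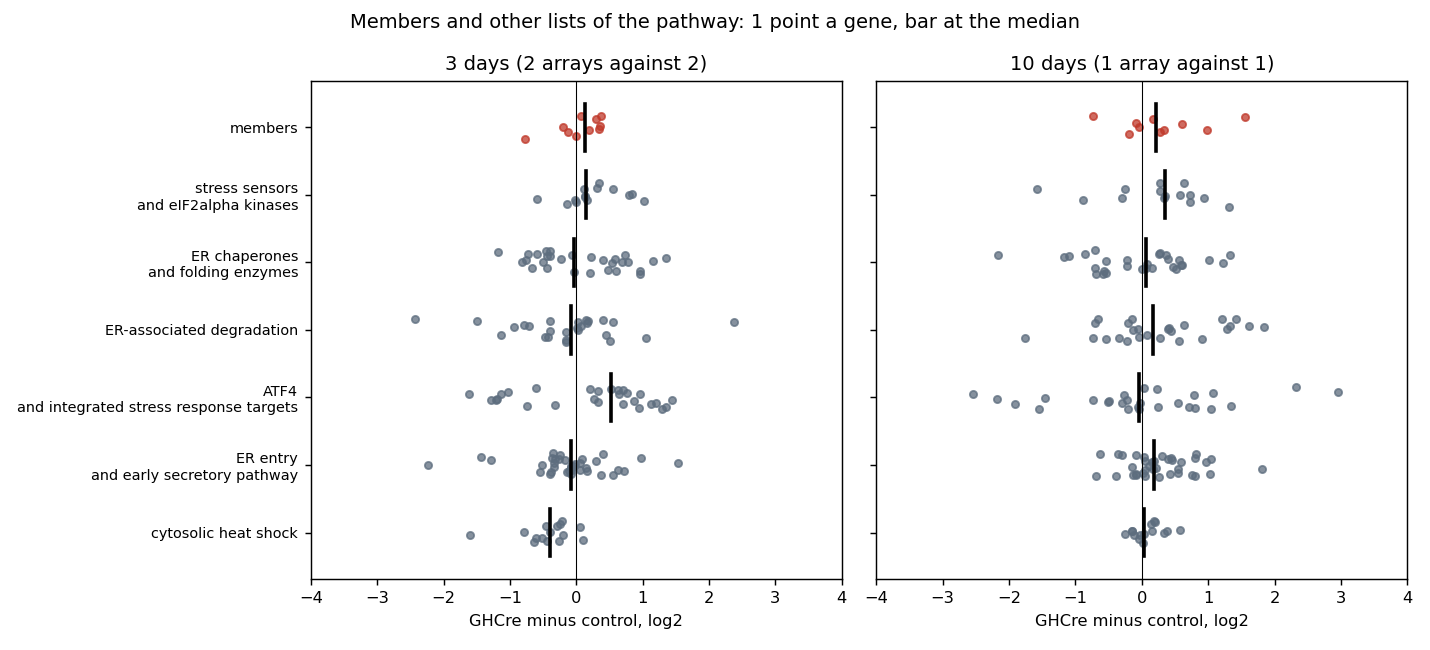
GHCre minus control differences (horizontal axes, log2) of the 10 ER stress genes (red) and of the genes tested in 6 other lists of the pathway (grey, rows), after 3 days (left) and 10 days (right). Each point is a gene and each bar the list median, which at 3 days is 0.52 for the ATF4 targets and -0.39 for the heat shock genes.

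Markers of other cell types and of dissociation are given beside these values, and no gene of any marker list passed an adjusted p of 0.05 in limma's fit. Of 11 hormone cell markers tested, 9 had negative differences after 3 days (median -0.56), and 0 were called at an unadjusted p of 0.05 (6.58% of all genes). Their summed level, on the log2 scale, was 10.76 and 10.56 in GHCre and 11.28 and 11.22 in control. After 10 days the sum was 11.01 in GHCre and 10.94 in control. The median difference was then -0.76, with 7 of 11 negative and 5 at least 2-fold lower (14.0% of all genes). At an unadjusted p of 0.05, 2 were called lower (1.67% of all genes). Fshb was not above background on any array.

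All 10 fibroblast and pericyte markers had positive differences at 3 days, against 48.0% of all genes (median 0.78, 1 called at an unadjusted p of 0.05, summed 8.08 and 7.82 in GHCre against 7.68 and 7.13 in control). All 5 T cell markers did too (median 1.84, 0 called, summed 4.08 and 3.82 in GHCre against 3.23 and 2.60 in control). So did 18 of 19 immediate early and dissociation genes (median 0.42, 4 called, summed 10.99 and 10.80 in GHCre against 10.77 and 10.73 in control). Of all genes 6.58% were called after 3 days, 3.95% higher and 2.63% lower. The endothelial sum was 3.28 and 3.12 in GHCre against 2.82 and 2.92 in control (5 of 7 positive). Sums were lower in GHCre for stem cell markers (4.98 and 5.12 against 5.33 and 5.32 in control), although 7 of 12 had positive differences (median 0.36, 1 called higher). The macrophage sum was 7.22 and 7.24 in GHCre against 7.81 and 7.56 in control (4 of 8 positive, 1 called higher), with C1qa and Aif1 not above background on any array. For B and plasma cells it was 1.75 and 1.73 in GHCre against 2.33 and 2.22 in control (2 of 5 positive), with Cd79b, Ms4a1 and Irf4 not above background on any array. All these sums were without overlap between the 3 day groups. Of single genes tested, 16.7% lay above and 21.3% below control without overlap. A sum of signals follows its brightest genes, so its direction need not be that of most genes in the list. The part of these markers in the levels of the ER stress genes, the ATF4 targets and the heat shock genes was not tested.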

How the data were processed

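RNA of 6 sorted samples was hybridised to 1-colour Agilent arrays. Per the file headers, Feature Extraction 10.7.3.1 made the deposited intensity values, which are background-subtracted signals with no scaling between arrays, and probe positions are of mm9. The deposited series table holds log2 values for 38017 probes, which correlated with quantile normalized scanner signal at 0.9999 or more on every array and served as an alternative. Groups follow the sample titles, which match the genotype and treatment fields, since some free-text descriptions disagree with them.

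Spots of a probe were averaged, flagged spots were left out, and 32 probe values with every spot flagged kept their signal. Each array's log2 75th percentile was subtracted. Probes were named by RefSeq accession (27234 probes), symbol (3576), synonym (565) or the files' own name (8054). Each gene took the probe whose mean level was highest, and the 20924 genes well above background on at least 2 arrays were tested. No spot was saturated. With 6 arrays, their number limits the precision.

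With limma 3.58.1 (R 4.3.3), 1 model with a mean per group covered the 6 arrays, with Benjamini-Hochberg adjustment over all genes tested at a threshold of 0.05. Its 2 residual degrees of freedom come from the 3 day arrays and the prior adds 2.03, so the 10 day arrays are assumed to vary like those. For a gene below background throughout 1 group, the fold is a bound, against the higher of its own signal and the array's lowest signal above background, and is open to the scaling chosen. The fit was tested on simulated data for the 3 day genotype comparison alone. All planted changes were larger than 2-fold, so smaller changes and the 10 day comparisons were not covered.

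The 10 genes, the other lists and the alternatives were chosen with earlier results of these data known. From each pathway list, up to 3 genes per direction of lowest 3 day p are named if the replicates did not overlap and both brighter arrays were above background, and per direction the gene of largest difference after 10 days. Promoter windows are RefSeq's (GRCm38.p6). Alternatives were quantile normalization, the series table, normexp (offset 50) scaled both ways, the filter dropped or set to all 6 arrays, a gene's probes averaged or fitted singly, an intensity trend in the prior, replicate or slide blocks, and each 3 day array left out. Python 3.11.15 with matplotlib 3.10.9 drew the figures.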

Additional observations from a re-analysis of the deposited data

How the results depend on the processing

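No gene passed an adjusted p of 0.05 under any of the 15 alternatives in any of the 5 comparisons, as in the fit reported, and the number at an unadjusted p of 0.05 after 3 days ran from 784 to 2284. Of 715 values of the 10 genes under alternatives, 55 took another sign, none of them past the threshold, and apart from Trib3 none of these was larger than 0.36. The cause of the sign changes was not tested. The replicate block left 0 genes past the threshold, and 1456 instead of 1376 at an unadjusted p of 0.05. The 3 day median of the 10 genes is 0.13 with it by construction, since each replicate number holds 1 array of each genotype. That median was 0.26 under quantile normalization, 0.25 under normexp with quantile normalization, 0.24 in the series table, 0.076 with probes averaged and from 0.12 to 0.22 with an array left out. The median difference of effects was -0.056 under quantile normalization and -0.059 in the series table, each with 4 of 10 positive. The median over time in GHCre was -0.0049 under the replicate block, -0.037 under the slide block and -0.013 without replicate 1 of the 3 day GHCre group. Deviations of the same-numbered 3 day arrays correlated at 0.0868, and the number was not taken as a pairing. The replicate number and the slide give the same fit at 3 days, and a slide block could not be fitted for the 10 day genotype comparison, the difference of effects or time in control. Under normexp with the 75th percentile the 3 day median of all genes moved to -0.15, beside 0.18 for the 10 genes. For the 3 day difference, Calr was at -0.015 and Dnajb9 at 0.013 under that setting, and Calr at -0.026 under normexp with quantile normalization. The mean of all probes gave 0.074 for Dnajb9, -0.028 for Atf4, -0.081 for Eif2ak4 and 0.049 for Sec31a, and the other probes gave 0.27 for Dnajb9 and -0.25 for Atf4. Some other named genes kept their sign but shrank under an alternative. The 3 day difference was as low as 0.042 for Gpt2, 0.039 for Ubxn4 and 0.44 for Dnajb12. The 10 day difference of Slc6a9 was as small as -1.07. With each 3 day array left out in turn, the 3 day difference ran from -0.074 to 0.23 for Hsp90b1, from -0.25 to 0.26 for Calr, from -0.15 to 0.91 for Pdia4, from -0.30 to 0.060 for Dnajb9, from -0.25 to 0.96 for Ddit3, from -3.93 to 2.39 for Trib3 and from -2.47 to 0.78 for Gh. It moved by over 1.5 times without changing sign for Herpud1 (0.003 to 0.68), Hspa5 (-0.29 to -0.10), Derl3 (-1.51 to -0.74), Dnajb12 (1.58 to 3.19), Eif2ak4 (0.24 to 0.86), Erlec1 (-0.97 to -0.46), Fkbp2 (-0.96 to -0.48), Herpud2 (0.33 to 0.76), Sec31a (-0.54 to -0.19), Vldlr (-1.63 to -0.78), Ubxn4 (0.44 to 1.66), Mcfd2 (0.45 to 2.63), Mthfd2 (0.74 to 1.96), Ero1a (-1.82 to -0.55) and Ero1b (0.40 to 1.52). The difference of effects was -0.076 for Hspa5, -0.052 for Hsp90b1 and -0.060 for Atf4 under quantile normalization, -0.088 for Hspa5 under normexp with the 75th percentile, and -0.080 for Dnajb9 on its other probe. It was -0.11 for Hspa5, -0.032 for Hsp90b1, -0.096 for Atf4 and -0.064 for the median of the 10 genes under normexp with quantile normalization. The series table gave -0.085 for Hspa5, -0.033 for Hsp90b1 and -0.093 for Atf4. With an array left out it ran from -0.090 to 0.097 for Hspa5, from -0.063 to 0.24 for Hsp90b1 and from -0.83 to 5.49 for Trib3. For 10 against 3 days in GHCre, Atf4 was at -0.011 under quantile normalization, -0.072 under normexp with quantile normalization and -0.038 in the series table, and Ddit3 at -0.13 under the replicate block. The slide block gave -0.017 for Hsp90b1 and -0.91 for Trib3, whose range with an array left out was -0.54 to 4.32. For 10 against 3 days in control, quantile normalization gave 0.021 for Calr and 0.050 for Atf4, normexp with the 75th percentile 0.037 for Atf4, and normexp with quantile normalization 0.011 for Hspa5 and 0.025 for Atf4. The series table gave 0.024 for Calr, 0.055 for Atf4 and 0.0063 for the median of the 10 genes. Dnajb9 was at 0.089 as the mean of its probes and 0.36 on its other probe, and Trib3 at 2.36 under the replicate block. With an array left out these values ran from -0.14 to 0.16 for Hsp90b1, from -0.39 to 0.12 for Calr, from -0.36 to 0.0026 for Dnajb9, from -0.16 to 0.52 for Herpud1, from -0.98 to 0.23 for Ddit3, from -0.022 to 0.012 for Atf4 and from -3.60 to 2.72 for Trib3. The lone 10 day arrays, and a lone 3 day array where its partner was left out, are assumed to vary like the other arrays. For Trib3 the signal over background on the slide of replicate 1 limits what can be said.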
